A study of Mus musculus with 8 samples.

Results

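7 genes were examined across the genotype and activation state of mouse bone marrow-derived macrophages: Hr, Bcas1, F2rl2, D0H4S114, Fzd1, Vnn3 and Mamdc2. They had been picked on these same arrays, for a strong difference between the genotypes in the response to activation or for alike values in unstimulated iNOS-/- cells and activated WT cells, with no numeric threshold stated. Every probe of the 7 symbols was taken, which gave 9 probes of the 25697 on the array and 7 of its 18138 gene symbols. Since every contrast among the 4 groups had entered the choice, the members' values are given as a description and without a test.

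Bone marrow cells of female C57BL/6J mice (WT) and of iNOS-deficient mice (B6.129P2-Nos2tm1Lau/J, which lack inducible nitric oxide synthase in every cell), 8 weeks old, were grown for 7 days in 10 ng/ml GM-CSF, a growth factor that drives macrophage development and that all 4 groups received. The cells were then left unstimulated or were turned into M1 macrophages with 200 ng/ml LPS, a bacterial cell wall component, plus 10 ng/ml IFN-γ for 6 h. RNA was hybridised to 8 Illumina bead arrays, 2 for each combination of genotype (WT or iNOS-/-) and state (unstimulated or M1). Whether both arrays of a group hold RNA of separate mice is not stated in the labels, so an error given here measures at most the spread between these arrays. The array type is MouseRef-8 in the series' text but MouseWG-8 in the methods. Intensities are given after scaling each array to the mean array on probes of stable rank, and a difference is the difference of mean log2 intensities, with values below 1 set to 1. A probe is called detected on an array where its deposited detection p-value is under 0.05.

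iNOS makes nitric oxide from arginine once macrophages meet bacterial products and interferon, and nitric oxide both kills microbes and alters signalling in the cell that makes it. The genes examined belong to no common pathway. They include a pair of cell surface receptors (F2rl2 and Fzd1), a pantetheinase that yields pantothenate and cysteamine (Vnn3), a nuclear corepressor (Hr), a gene expressed in oligodendrocytes and amplified in breast cancers (Bcas1), a regulator of TGF-β and of cell motility (D0H4S114, now named Nrep, whose protein is P311), and a secreted proteoglycan (Mamdc2).

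2 of the genes had more than 1 probe, and the probe sequences show how independent those readings are. The first 30 of the 50 bases of each Vnn3 probe are printed, with the stretch that both printed parts share in capitals. The probes overlap by 49 bases, offset by 1, so they read the same site and count as 1 measurement of the gene.
Vnn3 probe 1: GTCTGAGGAGTCGAGGTGGAGCCCCTTTGc
Vnn3 probe 2: cGTCTGAGGAGTCGAGGTGGAGCCCCTTTG
The Hr probes are listed as starting 204 bases apart in the transcript. Listed starts alone do not show separate sites, since those of the overlapping Vnn3 probes are 1503 and 1. The full Hr sequences were not compared.
Hr probe 1: cacgtgcgccagctcttgttatacttaaca
Hr probe 2: atcccaactcctcttagtgtccaagccccc
Promoters of 3 of the 7 genes were found in a RefSeq table (build GRCm38.p6). All members with an entry in that table are shown, whatever the direction of their responses. Each is the 250 bases before the transcript start, 5′ to 3′ on the gene's strand, with matches to the AP-1 motif TGANTCA in capitals.
F2rl2, chr13:95696670-95696919, plus strand: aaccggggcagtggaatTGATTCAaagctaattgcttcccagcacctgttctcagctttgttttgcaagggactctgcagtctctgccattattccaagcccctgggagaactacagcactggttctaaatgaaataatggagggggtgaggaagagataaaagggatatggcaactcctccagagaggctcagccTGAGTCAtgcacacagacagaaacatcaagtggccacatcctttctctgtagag
Fzd1, chr5:4758217-4758466, minus strand: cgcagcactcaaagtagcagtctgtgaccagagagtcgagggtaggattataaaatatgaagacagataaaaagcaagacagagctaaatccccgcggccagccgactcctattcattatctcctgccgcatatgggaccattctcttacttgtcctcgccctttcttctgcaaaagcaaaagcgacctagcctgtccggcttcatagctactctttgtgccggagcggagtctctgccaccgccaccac
Vnn3, chr10:23851212-23851461, plus strand: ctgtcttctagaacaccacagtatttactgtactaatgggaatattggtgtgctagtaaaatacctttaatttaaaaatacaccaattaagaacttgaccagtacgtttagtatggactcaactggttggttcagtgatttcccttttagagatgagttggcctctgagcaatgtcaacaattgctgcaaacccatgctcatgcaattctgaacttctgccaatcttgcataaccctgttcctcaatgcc
The F2rl2 window held 2 AP-1 matches, TGATTCA at 233 bases and TGAGTCA at 54 bases before the start, and 6.75% of 32851 mouse promoter windows of this length held at least 1. No match on either strand was found in the 3 windows for the interferon-γ motif GAS (TTCNNNGAA, in 7.02% of all windows), the interferon motif ISRE (GAAA, any 2 bases, GAAA, in 2.98%) or the NF-kB motif (GGGA, any base, TTTCC, in 0.356%), and none for AP-1 in the Fzd1 and Vnn3 windows. A match is a stretch of letters and shows no binding.

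Several facts of the whole set of arrays bear on the values. Between 11833 and 12673 probes were detected on an array, and the median absolute log2 difference between the 2 arrays of a group was 0.16 to 0.19. Nos2, the targeted gene, was not detected on any of the 4 unstimulated arrays and was at 183 and 137 on the WT M1 arrays and at 192 and 217 on the iNOS-/- M1 arrays, a difference of 0.37 with an adjusted p of 0.390 in limma. Its single probe therefore does not check the genotype labels, and where the deleted part lies relative to that probe is not given in the sources used here. All 10 macrophage markers on the array were detected, with summed intensities of 40656 to 62597 on the 8 arrays, whereas 9 of 12 stromal, 8 of 9 T and NK cell and 3 of 4 B cell markers were detected on none. Fewer cells of a type and less RNA per cell cannot be told apart in such bulk samples.

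8 of the 9 member probes, for 6 of the 7 genes, had mean responses of opposite sign in WT and iNOS-/- cells. Opposite signs were found for 44.1% of the 13868 probes detected on at least 2 arrays. 5 probes (Hr, Bcas1, F2rl2 and D0H4S114) were higher in WT M1 than in unstimulated WT cells and lower in iNOS-/- M1 than in unstimulated iNOS-/- cells, as were 23.1% of all tested probes. The 3 probes of Fzd1 and Vnn3 went the other way, as did 20.9%. Mamdc2 was lower after activation in both genotypes, so the description of opposite responses does not hold for it. In the 5 probes of the first set all 4 WT M1 and iNOS-/- unstimulated arrays lay above the other 4 arrays, an arrangement found in 9.46% of tested probes. In the 3 Fzd1 and Vnn3 probes they all lay below the other 4, as in 7.25% of tested probes. Because the members were chosen on these contrasts, nothing is read from their counts.

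**Figure D1:**
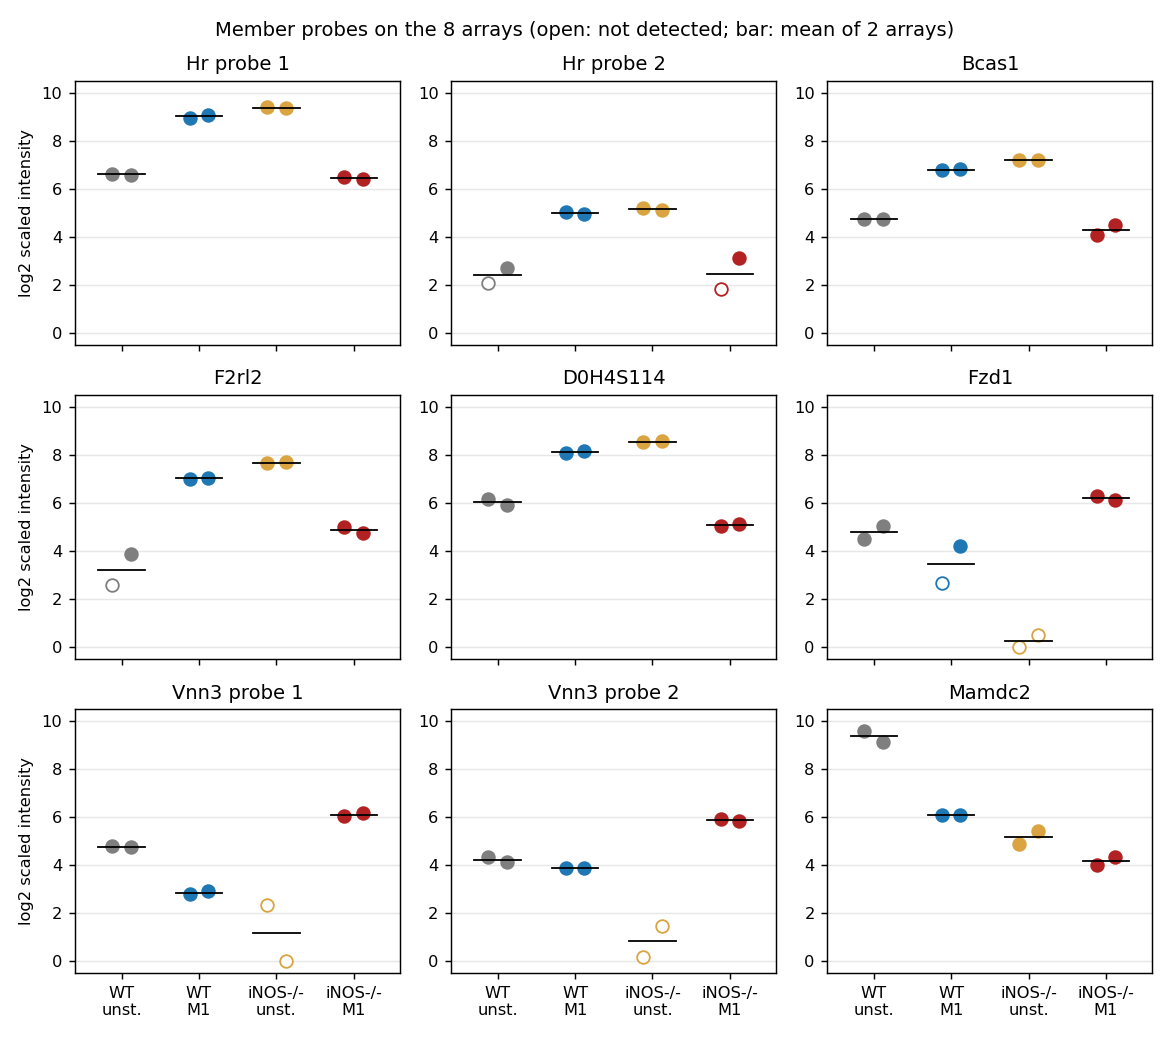
Log2 scaled intensity (y axis, floor of 1) of the 9 member probes on each of the 8 arrays, by group (x axis, "unst." for unstimulated); filled points were detected, open points were not, and bars are means of 2 arrays. Hr, Bcas1, F2rl2 and D0H4S114 are high in WT M1 and unstimulated iNOS-/- cells, Fzd1 and Vnn3 are low there, and Mamdc2 is highest in unstimulated WT cells.

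F2rl2 encodes protease-activated receptor 3, a G protein-coupled receptor cleaved by thrombin. Its intensity was 6.0 and 14.6 on the unstimulated WT arrays, 130 and 132 in WT M1, 202 and 209 in unstimulated iNOS-/- cells, and 32.4 and 27.4 in iNOS-/- M1. The groups did not overlap, and only the first unstimulated WT array failed detection. The mean was 14.0-fold higher in WT M1 than in unstimulated WT cells (log2 difference 3.81 ± 0.41, SE) and 6.90-fold lower in iNOS-/- M1 than in unstimulated iNOS-/- cells (-2.79 ± 0.41). Unstimulated iNOS-/- cells stood 22.0-fold above unstimulated WT cells, a log2 difference of 4.46 that rests on a dim WT reading and was 3.04 under neqc. The order from low to high was WT unstimulated, iNOS-/- M1, WT M1 and iNOS-/- unstimulated, with the last pair separated by 0.65 ± 0.41. Without the second unstimulated WT array the response in WT was 4.45, and without the first 3.17.

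The other protease-activated receptors were at the limit of the array. F2rl1 and F2rl3 were detected on none of the arrays. F2r, which encodes the thrombin receptor PAR1, was not detected in unstimulated WT cells, was at 25.5 and 19.0 in WT M1, at 26.4 and 24.8 in unstimulated iNOS-/- cells and at 38.2 and 48.0 in iNOS-/- M1. F2r rose at least 3.73-fold in WT M1 (limma adjusted p = 0.000722) and was not called in the iNOS-/- response (0.74 ± 0.31, adjusted p = 0.0993). Its difference in response was -3.31 (adjusted p = 0.00352), but with values below 16 raised to 16 it was 0.29 (adjusted p = 0.494), and under neqc it was -0.34 and was not called either.

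Of 15 tested genes of coagulation, fibrinolysis and protease-activated receptors, 11 differed in response between the genotypes, 6 more positive and 5 more negative in iNOS-/- cells, against 42.1% of all tested probes called. The median difference was 0.23, beside 0.01 over all probes. The count was 7 without the second unstimulated WT array and 7 without the second unstimulated iNOS-/- array. Procr, the endothelial protein C receptor, rose in both genotypes, from 11.1 and 12.7 to 40.0 and 41.2 in WT and from 7.7 and 14.2 to 173 and 161 in iNOS-/- cells, and the difference in response was 2.22 ± 0.41 (limma adjusted p = 0.0101). Plau, the urokinase plasminogen activator, fell in iNOS-/- M1 from 175 and 179 to 69.4 and 75.2, while its WT response was 0.33 (adjusted p = 0.0471) and was lost in 12 of 15 alternatives. That gave Plau a difference in response of -1.62 ± 0.13 (adjusted p = 0.000928). Tfpi, the tissue factor pathway inhibitor, had a difference of 1.75 ± 0.52 (adjusted p = 0.0448) that was lost in 9 of 14 alternatives, among them leaving out any 1 of the WT or unstimulated iNOS-/- arrays.

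Fzd1 encodes a Frizzled receptor for Wnt ligands. It was dim on every array, at 22.9 and 33.4 in unstimulated WT cells, 6.4 and 18.8 in WT M1, -1.3 and 1.4 in unstimulated iNOS-/- cells, and 79.5 and 70.1 in iNOS-/- M1. The iNOS-/- M1 arrays were the highest and the unstimulated iNOS-/- arrays the lowest, with no overlap between any groups. Fzd1 was not detected on the unstimulated iNOS-/- arrays nor on the first WT M1 array. The intensity was at least 14.5-fold higher in iNOS-/- M1 than in unstimulated iNOS-/- cells. It was at least 5.36-fold higher in unstimulated WT than in unstimulated iNOS-/- cells, and 6.78-fold higher in iNOS-/- M1 than in WT M1 (2.76 ± 0.54). Without the first WT M1 array that last difference was 1.99, and without the second 3.54. The WT response was -1.33 ± 0.54 and ranged from -2.10 to -0.55 when 1 array was left out, the extremes being without the second and without the first WT M1 array.

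Among relatives of Fzd1, Fzd2, Fzd3, Fzd6, Fzd8 and Fzd10 were detected on none of the arrays. Fzd5 rose in both genotypes, from 109 and 97.0 to 169 and 153 in WT and from 71.6 and 66.7 to 233 and 226 in iNOS-/- cells. Its difference in response was 1.09 ± 0.15 (limma adjusted p = 0.00403). Fzd7 fell in WT M1 from 220 and 190 to 114.5 and 108, and in iNOS-/- cells stood at 96.9 and 89.6 before and 109 and 125 after activation. The Fzd7 difference in response was 1.21 ± 0.17 (adjusted p = 0.00449), with the WT response at -0.88 (adjusted p = 0.00503) and the iNOS-/- response at 0.33 (adjusted p = 0.0744). Fzd5 and Fzd7 were the 2 of 6 tested Wnt receptors and coreceptors that were called, both more positive in iNOS-/- cells, where 42.1% of all tested probes were called and 21% were more positive. The median over the 6 was 0.83, beside 0.01 over all probes.

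Further along the pathway, 1 of 7 tested Wnt ligands and secreted modulators and 4 of 13 tested transducers and targets differed in response, where 42.1% of all tested probes were called. Frzb, a secreted Wnt antagonist, was not detected in WT cells, was at 8.1 and 6.7 in unstimulated iNOS-/- cells and at 21.7 and 21.1 in iNOS-/- M1. It was at least 3.02-fold higher in iNOS-/- M1 than in WT M1, and its response in iNOS-/- cells was 1.53 ± 0.11 (limma adjusted p = 0.000294). All WT values of Frzb were set to the floor, so both WT groups entered the model with an SD of 0. The error and p-value thus depend on the floor as well as on the spread between arrays. The SD was 0.19 in unstimulated iNOS-/- cells and 0.03 in iNOS-/- M1. Over the alternatives the Frzb response in iNOS-/- cells was 0.42 to 1.67. Without the first iNOS-/- M1 array 2 of the 7 were called. Ccnd1, which encodes cyclin D1 and is a target of β-catenin, rose from 19.0 and 13.7 to 262 and 249 in WT and from 357 and 406 to 609 and 637 in iNOS-/- cells, a difference in response of -3.27 ± 0.25 (adjusted p = 0.000725). The iNOS-/- rise was not called under quantile normalization or without any 1 of the 4 iNOS-/- arrays. Tcf7l2, a transcription factor that binds β-catenin, fell in iNOS-/- M1 from 130 and 112 to 72.3 and 70.3 (-0.77 ± 0.11, adjusted p = 0.00286) and was at 0.27 in WT (adjusted p = 0.109). Ctnnb1, β-catenin itself, fell in WT M1 from 2872.5 and 2539 to 1311 and 1381.5 and was at 0.02 in iNOS-/- cells (adjusted p = 0.888), a value that became -0.53 and called under both neqc and quantile normalization. The difference for Ctnnb1 was 1.03 ± 0.16 (adjusted p = 0.00557) and was not called under quantile normalization. Pygo2, a coactivator of β-catenin, had a difference of 0.86 ± 0.12 (adjusted p = 0.00443) that was not called under neqc or quantile normalization.

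Vnn3 encodes a vanin, a membrane-anchored pantetheinase. On probe 1 its intensity was 28.1 and 26.9 in unstimulated WT cells, 6.9 and 7.7 in WT M1, 5.1 and -0.1 in unstimulated iNOS-/- cells, and 66.7 and 72.4 in iNOS-/- M1. On probe 2, which reads the same site, it was 20.7 and 17.5, 15.0 and 14.9, 1.1 and 2.8, and 61.2 and 58.6 in the same order. Both probes were highest on the iNOS-/- M1 arrays and were not detected on the unstimulated iNOS-/- arrays. The intensity in iNOS-/- M1 was at least 13.5-fold higher on probe 1 and at least 11.6-fold higher on probe 2 than in unstimulated iNOS-/- cells. The probes disagreed on the size of the WT response, which was -1.92 ± 0.73 on probe 1 and -0.34 ± 0.41 on probe 2. iNOS-/- M1 stood 9.55-fold above WT M1 on probe 1 and 4.0-fold on probe 2.

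The neighbours of Vnn3 in coenzyme A and taurine metabolism mostly went down in iNOS-/- M1. Of 11 tested genes 8 fell and 2 rose in the iNOS-/- response, where 49.9% of all tested probes were called (23.6% lower), with a median of -1.20 beside 0.05. In the WT response 3 of 11 fell and none rose, where 35.1% of all tested probes were called (14.9% lower). The difference in response was called for 9 of 11, with 7 more negative in iNOS-/- cells, against 42.1% of all tested probes called. That count was 5 without the second unstimulated WT array and 5 without the first WT M1 array. Vnn1, the other vanin on the array, was not detected. Slc5a6, which carries pantothenate into the cell, went from 205 and 202 to 146 and 169 in WT and fell from 173 and 172 to 35.0 and 33.5 in iNOS-/- cells, a difference in response of -1.96 ± 0.14 (limma adjusted p = 0.000658). Coasy, which catalyses the last steps of coenzyme A synthesis, fell from 241 and 230 to 91.6 and 114.5 in iNOS-/- cells and was at 0.38 in WT (adjusted p = 0.130). Pank1, a pantothenate kinase, and Csad, an enzyme of taurine synthesis, were not detected in iNOS-/- M1 and had been at 46.9 and 59.3 and at 22.6 and 20.4 in unstimulated iNOS-/- cells. They were at least 6.63-fold and at least 2.70-fold lower, respectively (adjusted p = 0.00487 and 0.00668). The Pank1 difference in response (-3.75 ± 1.05, adjusted p = 0.0376) was not called without any 1 of the WT or unstimulated iNOS-/- arrays, and the Csad difference was -3.52 ± 0.69 (adjusted p = 0.0122).

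**Figure D2:**
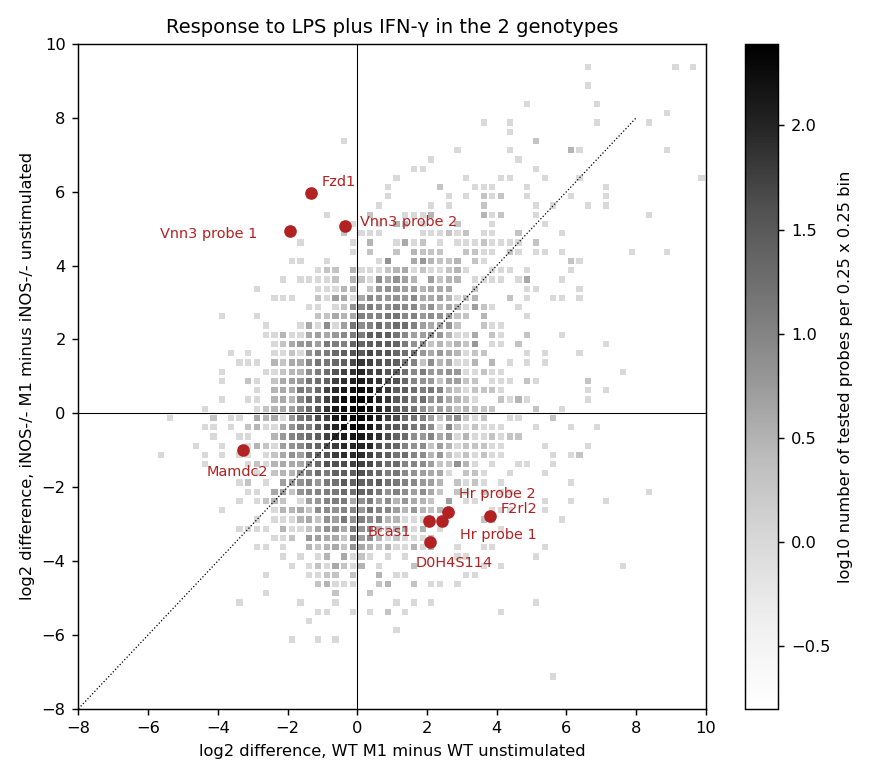
Log2 difference between M1 and unstimulated cells in WT (x axis) and in iNOS-/- cells (y axis), with members as red points and all 13868 tested probes as squares shaded by their number per bin; the dotted line marks equal responses. 5 probes lie in the lower right, the Fzd1 and Vnn3 probes in the upper left, and Mamdc2 in the lower left with a response of -3.28 in WT and -1.004 in iNOS-/- cells.

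Hr encodes hairless, a nuclear corepressor of the vitamin D, thyroid hormone and ROR receptors that carries a histone demethylase domain. On probe 1 its intensity was 98.8 and 96.3 in unstimulated WT cells, 502 and 550 in WT M1, 678 and 658 in unstimulated iNOS-/- cells, and 90.6 and 86.1 in iNOS-/- M1. Probe 1 was detected on all 8 arrays and showed the smallest spread between arrays of the members, with a pooled SD of 0.06. Probe 2, listed at a different start, was dimmer, at 4.2 and 6.6, 33.4 and 30.9, 37.0 and 34.5, and 3.5 and 8.8 in the same order, and missed detection on 1 array of unstimulated WT and 1 of iNOS-/- M1. The probes ordered WT M1 and unstimulated iNOS-/- cells above the other groups in the same way. The response in WT was 2.43 ± 0.09 on probe 1 and 2.60 ± 0.46 on probe 2, and the response in iNOS-/- cells was -2.92 ± 0.09 and -2.68 ± 0.46. On probe 2 the latter was -3.35 without the second iNOS-/- M1 array and -2.02 without the first. On probe 1 the intensity was 5.39-fold higher after activation in WT and 7.56-fold lower in iNOS-/- cells. Unstimulated iNOS-/- cells and WT M1 differed by 0.35 ± 0.09 on probe 1, and unstimulated WT and iNOS-/- M1 lay within 98.8 to 86.1.

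Among 12 tested relatives of hairless, nuclear receptor partners and corepressors, 3 were more positive and 3 more negative in the iNOS-/- response, where 42.1% of all tested probes were called, with a median of -0.28 beside 0.01 over all probes. Vdr, the vitamin D receptor, rose in both genotypes, from 22.2 and 19.8 to 166 and 176 in WT and from 127 and 136 to 463 and 507 in iNOS-/- cells, a difference in response of -1.14 ± 0.15 (limma adjusted p = 0.00345). Rora, an ROR receptor, fell in WT M1 from 96.7 and 114.2 to 38.6 and 31.3 and was at 0.26 in iNOS-/- cells (adjusted p = 0.439). The Rora difference in response was 1.86 ± 0.36 (adjusted p = 0.0122). Nrip1, a corepressor, was near the detection limit, at 16.4 and 17.8 in iNOS-/- M1 and at most 11.99 elsewhere, and its difference of 2.80 ± 0.61 (adjusted p = 0.0172) shrank to 0.09 with a floor of 16. It was also lost without the first unstimulated WT or the second iNOS-/- M1 array. Jmjd1a, a histone demethylase of the family of hairless, fell in WT M1 from 445 and 375 to 207 and 205 on its brightest probe, while in iNOS-/- cells it was at 196 and 188 before and 226 and 243 after activation. Its difference in response was 1.28 ± 0.16 (adjusted p = 0.00286) on that probe, and 0.53 (adjusted p = 0.136) and 0.61 (adjusted p = 0.0392) on its other probes. Rxrb, a retinoid X receptor named here after its values were seen, also had all 4 WT M1 and unstimulated iNOS-/- arrays above the other 4, as did 9.46% of tested probes. Rxrb was at 319 and 290.3 in unstimulated WT cells and 437 and 406 in WT M1. In iNOS-/- cells it was at 404 and 391 before and 261 and 263 after activation. Unlike Hr, it was higher in WT M1 than in unstimulated iNOS-/- cells.

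Bcas1 was at 27.1 and 26.6 in unstimulated WT cells, 111 and 112 in WT M1, 148 and 150 in unstimulated iNOS-/- cells, and 17.0 and 22.9 in iNOS-/- M1. The groups did not overlap, and arrays of a group lay close together except in iNOS-/- M1. The intensity was 4.16-fold higher after activation in WT (2.06 ± 0.15) and 7.56-fold lower in iNOS-/- cells (-2.92 ± 0.15). The genes that share its name are of other families. Bcas2, a splicing factor, was at 506 and 572 in unstimulated WT cells and 512 and 506 in WT M1, and fell in iNOS-/- cells from 534 and 557 to 369 and 343, a response of -0.62 ± 0.10 (limma adjusted p = 0.00450). The Bcas2 difference in response of -0.54 ± 0.14 (adjusted p = 0.0298) was lost in 7 of 14 alternatives, including the omission of either unstimulated iNOS-/- array. Bcas3 was not called (-0.15 ± 0.18, adjusted p = 0.550). Of 6 tested genes of myelin and of the same names, Bcas2 was the 1 called in that comparison, where 42.1% of all tested probes were called, and the median was -0.32 beside 0.01 over all probes.

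D0H4S114 was at 71.3 and 60.9 in unstimulated WT cells, 273 and 288 in WT M1, 374 and 384 in unstimulated iNOS-/- cells, and 33.2 and 34.8 in iNOS-/- M1. It was detected on all 8 arrays, and no groups overlapped. The intensity was 4.26-fold higher after activation in WT (2.09 ± 0.11) and 11.1-fold lower in iNOS-/- cells (-3.48 ± 0.11), the largest difference of the 5 probes in that genotype. It was lower on each iNOS-/- M1 array than on each unstimulated WT array.

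Since the P311 protein acts on TGF-β, the genes of that pathway were set beside it. Of 21 tested TGF-β ligands, receptors and SMADs, 13 were called in the WT response (8 higher), 12 in the iNOS-/- response (8 higher) and 10 for the difference in response (6 more positive), where 35.1%, 49.9% and 42.1% of all tested probes were called. Tgfbi, an extracellular matrix protein induced by TGF-β, had the same order of group means as D0H4S114. Its intensity was 3046 and 3180 in unstimulated WT cells, 5435 and 5785 in WT M1, 5634 and 6157 in unstimulated iNOS-/- cells, and 2001.5 and 2158 in iNOS-/- M1. Tgfbi thus rose in WT (0.85 ± 0.10, limma adjusted p = 0.00258) and fell in iNOS-/- cells (-1.50 ± 0.10, adjusted p = 0.000196). The difference in response was -2.35 ± 0.13 (adjusted p = 0.000405). Tgif1, a corepressor of SMAD proteins, had the reverse arrangement, with 520 and 500, 217 and 226, 197 and 247, and 648 and 711 in the same group order. Tgif1 fell in WT (-1.20 ± 0.13, adjusted p = 0.00246) and rose in iNOS-/- cells (1.62 ± 0.13, adjusted p = 0.000440). Thbs1, thrombospondin 1, which activates latent TGF-β, fell in WT from 84.7 and 83.3 to 67.4 and 64.6 and rose in iNOS-/- cells from 47.4 and 49.7 to 115 and 113, a difference in response of 1.58 ± 0.11 (adjusted p = 0.000625). The WT fall of Thbs1 was not called without any 1 of the 4 WT arrays. Itgb8, an integrin subunit that also activates TGF-β, was detected in iNOS-/- M1 only, at 13.8 and 9.3, at least 2.20-fold above unstimulated iNOS-/- cells. Tgfb1 rose in WT from 407 and 435 to 912 and 777 and was at 0.20 in iNOS-/- cells (adjusted p = 0.177), a value that became negative under neqc and quantile normalization. Its difference in response was -0.80 ± 0.15 (adjusted p = 0.0107).

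Mamdc2, a secreted proteoglycan with MAM domains, was at 772 and 574 in unstimulated WT cells, 68.4 and 68.2 in WT M1, 29.9 and 43.6 in unstimulated iNOS-/- cells, and 16.03 and 20.2 in iNOS-/- M1. It was detected on all arrays and stepped down in this order of groups with no overlap between them. The intensity was 9.74-fold lower after activation in WT (-3.28 ± 0.25) and 2.01-fold lower in iNOS-/- cells (-1.004 ± 0.25). Unstimulated iNOS-/- cells were 18.4-fold below unstimulated WT cells, and the iNOS-/- M1 group was 3.79-fold below WT M1. The difference in response, 2.28 ± 0.35, thus came with lower values after activation in both genotypes. Of 8 tested MAM domain proteins and secreted proteoglycans, 3 differed in response, all more positive in iNOS-/- cells, where 42.1% of all tested probes were called, with a median of 0.62 beside 0.01 over all probes. Srgn, serglycin, the proteoglycan of secretory granules, was between 537 and 762 in the other groups and at 3344 and 3405 in iNOS-/- M1, a difference in response of 2.23 ± 0.16 (limma adjusted p = 0.000694). Agrn, agrin, rose from 205.5 and 197 to 380 and 343 in WT and from 244 and 224 to 970 and 1043 in iNOS-/- cells (1.26 ± 0.14, adjusted p = 0.00220). Nrp1, neuropilin 1, which holds a MAM domain, fell in WT from 1159 and 1119 to 637 and 717, and its difference of 0.51 ± 0.13 (adjusted p = 0.0309) was lost in 10 of 14 alternatives. Mamdc4 was not tested, being detected on at most 1 array.

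**Figure D3:**
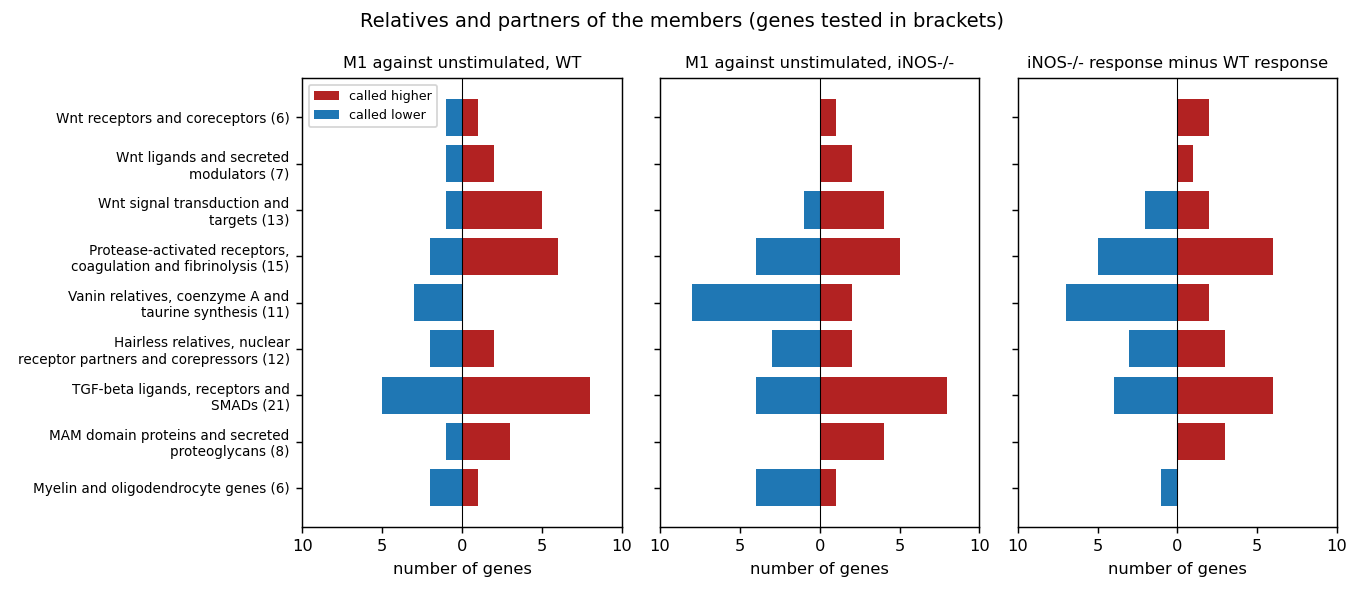
Number of genes called higher (red, to the right) or lower (blue, to the left) by limma at an adjusted p under 0.05 in each list of relatives and partners of the members (y axis, number tested in brackets), for the WT response, the iNOS-/- response and their difference. The coenzyme A and taurine genes stand out by 8 of 11 called lower in iNOS-/- cells.

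Over all lists of relatives and partners, 99 of 195 genes on the array were tested. The WT response was called for 46, the iNOS-/- response for 53 and the difference in response for 47, or 25 more positive and 22 more negative. Over all tested probes these shares were 35.1%, 49.9% and 42.1%, with 20.1% higher in the WT response, 26.4% higher in the iNOS-/- response, and 21% more positive and 21.1% more negative for the difference. The list medians were 0.26, 0.29 and 0.05. Leaving out 1 array moved several counts of single lists by more than 1.5 times. In the WT response, 8 coagulation and receptor genes became 5 without either unstimulated WT array, the second WT M1 array or either unstimulated iNOS-/- array. There, 3 Wnt ligands and modulators became 1 without the second unstimulated WT array or either WT M1 or unstimulated iNOS-/- array, and 6 Wnt transducers and targets became 3 without the first WT M1 array. In the iNOS-/- response, 5 Wnt transducers and targets became 2 or 3 without any 1 of the 4 iNOS-/- arrays. The 5 hairless relatives became 2 or 3 without the first unstimulated or either M1 array of iNOS-/- cells, and the 1 Wnt receptor became 2 without either unstimulated array or the first M1 array.

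The direct comparison of unstimulated iNOS-/- cells with WT M1, on which some members had been picked, was called for 13.4% of tested probes. Differences between these groups were 0.15 to 0.65 for the 5 probes of Hr, Bcas1, F2rl2 and D0H4S114, all higher in unstimulated iNOS-/- cells. For Fzd1 and Vnn3 the level was lower in unstimulated iNOS-/- cells, where they were not detected, by at least 2.13-fold for Fzd1 and at least 1.41-fold and 2.90-fold for the Vnn3 probes. Mamdc2 was lower by 1.89-fold (-0.92 ± 0.25). With values below 16 raised to 16, the log2 difference between these groups was -0.12 for Fzd1 and 0 for both Vnn3 probes.

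The members fell into sets by shape. Across the 8 arrays, with low values set to 16, Pearson's r among the probes of Hr, Bcas1, F2rl2 and D0H4S114 was 0.90 to 0.99 between genes, and that between Fzd1 and Vnn3 was 0.95 to 0.98. Mamdc2 had r of -0.50 to -0.08 with all other probes. These correlations rest on 8 arrays in 4 groups and are a description. By the same measure, 110 to 209 of 5947 or 5948 variable tested probes had r of at least 0.95 with a given member, so high r was common. The genes most like each member had r of 0.989 or more. They were Cad, the enzyme that starts pyrimidine synthesis, and Susd4 for Hr, and Asf1b, a histone chaperone, and Pold1, a DNA polymerase subunit, for Bcas1. They were Epb4.1l3 and Birc5, survivin, for F2rl2, and Tcf19 and Fcgrt, the neonatal Fc receptor, for D0H4S114. For Fzd1 they were Cttnbp2nl and Nfat5, for Vnn3 4932441K18Rik and Brd2, and for Mamdc2 the lipid-associated macrophage genes Gpnmb and Trem2. Ranking by Spearman's rho kept 2 of these 14 pairs (Epb4.1l3 and Cttnbp2nl).

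**Figure D4:**
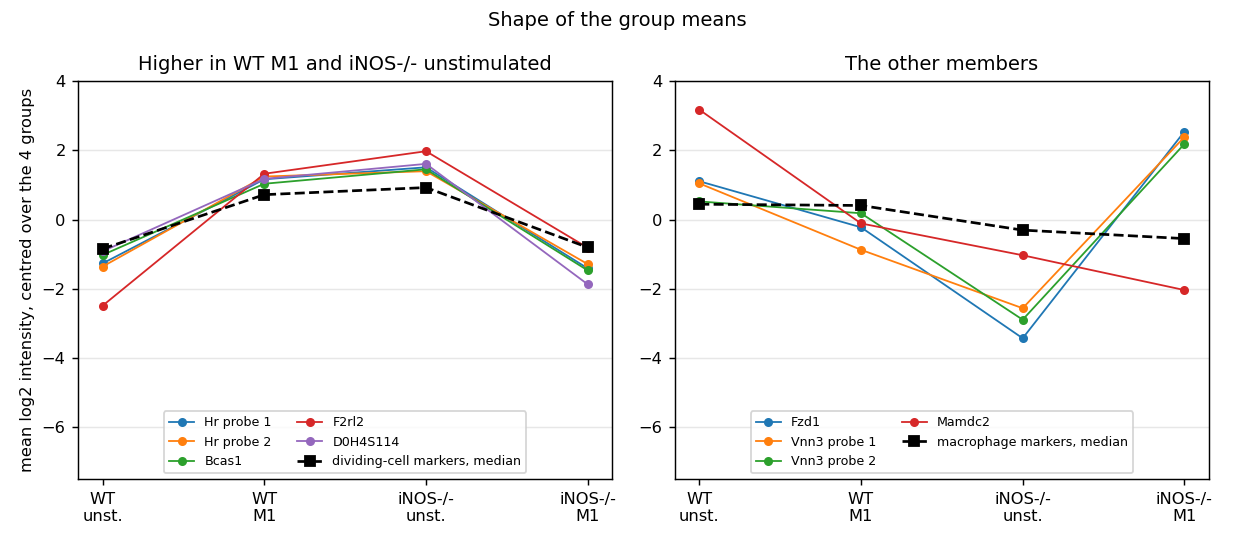
Mean log2 intensity of each member probe in the 4 groups (x axis), centred on its own mean over the groups (y axis), with the median of the dividing-cell markers (left) and of the macrophage markers (right) as dashed black lines. The dividing-cell markers, like Hr, Bcas1, F2rl2 and D0H4S114, are higher in WT M1 and unstimulated iNOS-/- cells than in the other groups.

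Markers of dividing cells moved with the first set. All 8 tested markers, of 10 on the array, rose in WT M1 and fell in iNOS-/- M1. Over all tested probes 20.1% were called higher in the WT response and 23.6% lower in the iNOS-/- response. All 8 were also higher in unstimulated iNOS-/- than in unstimulated WT cells, where 32.1% of tested probes were called (16.1% higher). Their summed intensity was 737 to 828 in unstimulated WT cells, 2275 to 2394 in WT M1, 2680 to 2723 in unstimulated iNOS-/- cells and 911 to 916 in iNOS-/- M1. Bub1 and Ccnb2 were detected on none of the arrays. The part of dividing cells in the values of Hr, Bcas1, F2rl2 and D0H4S114 was not tested. Dendritic cell markers had sums of another shape, 883 to 890, 17243 to 17787, 14638 to 15501 and 38702 to 40524 in the same order. Flt3 was detected on no array, and the sum does not stand for each marker. Of 9 tested, 8 were called higher in the WT response and 6 in the iNOS-/- response, against 20.1% and 26.4% of tested probes. Between unstimulated groups 8 were higher in iNOS-/- cells, against 16.1%. For the difference in response 6 were more negative and none more positive, against 21.1% and 21%. Mast cell and basophil markers summed to 48.9 to 56.4, 519 to 570, 423 to 424 and 2296 to 2386, with 4 of 8, Mcpt4, Mcpt8, Ms4a2 and Tpsab1, detected on none. Of the 4 tested, 3 had a more negative difference in response and none a more positive one, beside the same shares. Granulocyte markers summed to 1273 to 1283, 1504 to 1609, 1795 to 1848 and 4181 to 4328, with Mpo undetected. That sum was highest in iNOS-/- M1, as were those of macrophage, dendritic cell, mast cell, stromal, and T and NK cell markers. Fzd1 and Vnn3 were highest there too, but unlike the granulocyte sum they were lower in unstimulated iNOS-/- than in unstimulated WT cells. Endothelial markers summed to 571 to 681, 438 to 452, 473 to 476 and 354 to 391, with Cdh5, Emcn and Tek undetected. That sum was highest in unstimulated WT cells but does not stand for each marker. Of the 3 tested, 1 was called higher and 1 lower in the WT response (median 2.30), where 35.1% of all tested probes were called. Between unstimulated iNOS-/- and WT cells the split was the same (median 0.99), where 32.1% were called. Stromal markers summed to at most 64.5 on any array. The part of these cell types in the members' values was not tested.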

How the data were processed

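RNA was measured on 1-colour Illumina arrays, 8 in all. The authors deposited the mean intensity of each probe, not normalized between arrays, with a detection p-value for each probe and array, read out with GenomeStudio per the labels. Their methods subtract background, normalize by rank-invariant probes, put 1 for negative values, take log2 and test with limma (3.14.4 in the submitters' processing notes). The deposited header names no background subtraction, yet 25.2% to 27.2% of values on an array lie below 0, so none was subtracted here. Columns of values that matched no sample numbered 0.

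Each array was divided by the slope of a robust line (MASS 7.3-60.0.1) on the mean array, over probes whose rank differed by less than 0.05 of their rank in the mean array and lay between 0.5 and 0.9 of the number of probes. Values under 1 became 1 before the log2 step. A probe was tested if its detection p-value was below 0.05 on 2 or more arrays, which kept 13868. A one-way model of 4 groups was fitted with lmFit and eBayes of limma 3.58.1 in R 4.3.3. P-values are 2-sided and Benjamini-Hochberg adjusted over those probes, and a difference was called at an adjusted p under 0.05. For a probe detected on neither array of a group, the fold is a bound, taken against the higher of the lowest detected intensity on each array and the probe's own. A related gene is given by its brightest probe, and the genes named are at most 4 called ones a list, relatives of the members, and the 2 genes most like each member. Rxrb was named outside this rule, after its values were seen. The number of arrays and the signal over background limit the precision. The procedure was tested on simulated data with changes placed only in probes detected on every array, so that test does not cover dim probes.

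The members and gene lists were chosen with earlier results of these data known, the lists from general knowledge. The alternatives tried were neqc and quantile normalization, raising the floor to 16, dropping the detection filter or asking for 4 arrays, fitting only the arrays compared, the replicate number as a block, and each array left out in turn. Likeness to a member was measured over 8 arrays with values under 16 set to 16.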

Additional observations from a re-analysis of the deposited data

Results flagged for a closer look

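The 8 member probes whose every array moved in opposite directions in the genotypes had differences in response, on the log2 scale as iNOS-/- minus WT, of -5.35 and -5.28 for Hr, -4.97 for Bcas1, -6.59 for F2rl2, -5.57 for D0H4S114, 7.29 for Fzd1, and 6.86 and 5.41 for Vnn3. These differences were not tested, since they had served to choose the members.

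Of the named relatives, 28 had a difference in response that limma called, with adjusted p-values of 0.000405 to 0.0448. The more positive responses in iNOS-/- cells were 1.21 for Fzd7, 1.09 for Fzd5, 1.53 for Frzb, 1.03 for Ctnnb1, 0.86 for Pygo2, 2.22 for Procr, 1.75 for Tfpi, 2.80 for Nrip1, 1.86 for Rora, 1.28 for Jmjd1a, 3.51 for Itgb8, 2.82 for Tgif1, 1.58 for Thbs1, 2.23 for Srgn, 1.26 for Agrn and 0.51 for Nrp1. The more negative were -3.27 for Ccnd1, -1.04 for Tcf7l2, -3.31 for F2r, -1.62 for Plau, -3.75 for Pank1, -3.52 for Csad, -1.96 for Slc5a6, -1.58 for Coasy, -1.14 for Vdr, -2.35 for Tgfbi, -0.80 for Tgfb1 and -0.54 for Bcas2. Those of Frzb, F2r, Pank1, Csad and Itgb8 involve a group in which the probe was not detected, so their sizes depend on the floor. For Frzb and Itgb8 whole groups stood at the floor with no spread, so their p-values depend on it too.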

How the results depend on the processing

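The 8 opposite member probes stayed 8 under all 11 alternatives that could move them, with sizes that shrank for dim probes. Since the members were picked on these same arrays, nothing is read from that stable count. With a floor of 16 the difference in response was 2.89 for Fzd1, 2.90 and 2.15 for the Vnn3 probes and -2.16 for Hr probe 2. Of 2858 alternative values of all results, 2438 were taken as unchanged. Single values were so taken if they kept direction and side of the threshold or stayed within their spread, and counts if they stayed within 1.5 times. Of the rest, 296 moved, 92 lost and 23 gained a call, and 9 turned direction. The values that turned were Ctnnb1 in iNOS-/- cells (-0.53 under neqc, -0.53 under quantile normalization, -0.050 to 0.093 with 1 array left out), Tgfb1 in iNOS-/- cells (-0.092 under neqc, -0.096 under quantile normalization), the F2r difference in response (0.29 with a floor of 16), Rora in iNOS-/- cells (-0.080 to 0.60 with 1 array left out) and Bcas2 in WT (-0.17 to 0.0098 with 1 array left out). Those extremes came from leaving out the first unstimulated iNOS-/- array for Ctnnb1 and Rora and the second unstimulated WT array for Bcas2. The cause was not tested. Called probes between unstimulated iNOS-/- cells and WT M1, 1865 in all, numbered 3563 under neqc, 557 in a fit on those arrays only, and 574 to 1548 with 1 array left out. Related genes called there, 19, numbered 30 under neqc, 32 with a floor of 16, 7 in a fit on those arrays only, and 7 to 17 with 1 array left out. Leaving out 1 array also gave 3118 to 4877 called probes for the WT response (4861) and 2707 to 4443 between the unstimulated groups (4458), fewest without the second unstimulated WT and the first unstimulated iNOS-/- array. The count fell by over 1.5 times without either unstimulated WT or the second WT M1 array for the WT response, and without any 1 of the 4 arrays compared for the other comparisons. A lone array is then assumed to vary like the other groups. Between groups, the deviations of arrays with the same replicate number correlated at -0.04 to 0.02 over all tested probes. That gives no sign of pairing but cannot show its absence. With the replicate block 1197 probes were called between unstimulated iNOS-/- cells and WT M1. The share of called probes that were higher was 57.5% in the WT response and 52.8% in the iNOS-/- response, but 44.4% and 43.3% under neqc and 47.5% and 42.0% under quantile normalization, and between unstimulated iNOS-/- cells and WT M1 it was 27.7%, 54.8% and 48.0%. Signal near background limits Fzd1, Vnn3, F2rl2 in unstimulated WT cells and Hr probe 2.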
